A study of Mus musculus with 4 samples.

Results

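The p53 target genes described here are 44 genes taken by symbol from a table of 14323 genes, and each of the 44 was present in it. They were grouped by what their products do: 6 in feedback on p53, 8 in growth arrest, 14 in cell death, 5 in DNA repair and 7 in metabolism. Another 4, Gdf15, Tgfa, Dusp6 and Pvt1, belong to none of these roles and are treated together as signalling genes and a non-coding RNA. The rule takes genes by name, and the names were chosen with earlier results of these data known.

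RNA-seq libraries were made from colonies of 2 kinds of blood progenitor of C57BL/6 mice, short-term haematopoietic stem cells (ST-HSCs) and MPP2 cells, multipotent progenitors with a bias toward platelet and red cell precursors. For 5 to 7 days, 100 cells of either kind were cultured in 1 ml of 1% methylcellulose, all cultures receiving SCF at 25 ng/ml and IL-6, IL-3 and GM-CSF at 10 ng/ml each. One culture of each kind contained 0.05 µM 4-hydroxytamoxifen (4OHT), an active metabolite of tamoxifen, and is labelled as expressing MLL-ENL, a leukaemia fusion protein, from a conditional allele of a model mouse. The other received only ethanol, the solvent, and is labelled as control. Each of the 4 combinations was 1 library, with 12907412 to 14317891 recovered reads, so no spread between cultures could be measured. No culture had 4OHT without the conditional fusion, so effects of the compound and of the fusion cannot be told apart. Neither the driver of the allele nor the number of donor animals is stated in the sources used here.

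The protein p53 (gene Trp53) is a transcription factor that is kept scarce by Mdm2 and Mdm4 and accumulates after DNA damage or oncogene signalling. It then raises transcription of genes that stop the cell cycle, promote death, repair DNA or alter metabolism, and of genes such as Mdm2 that shut the response down again. In blood stem and progenitor cells p53 restrains expansion and sets sensitivity to damage. Much of its control acts on the protein, which RNA-seq does not measure.

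Several members carry sequence like that bound by p53 at their start sites. The p53 decamer, the 10-base unit of a p53 response element, reads the same on both strands, so 1 search covers both. It was searched for in RefSeq promoter windows on GRCm38.p6, from 250 bases before to 50 bases after each start site. Of the 44 members, 35 had at least 1 window, 49 windows in all. The decamer was in 14 of these 49 windows (28.6%) and in 8.36% of all 32851 windows of the same length. It was in 6.74% of the windows of the genes tested here. The same Aen decamer was counted in overlapping windows, and by gene 13 of the 35 members held it (8.01% of tested genes with a window). The members are listed as p53 targets, so a high share is built into the list. A pair of decamers side by side, with at most 1 base off the pattern, was in 3 member windows (Cdkn1a, Ccng1 and Gtse1) and in 22 of all windows. A match is a description of the letters and was not measured as binding here.

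The following stretches show these 3 paired matches, with the pair in capitals. They are printed because they are the closest promoter matches to a complete p53 element among the members.
Cdkn1a (chr17:29090923-29090952, + strand): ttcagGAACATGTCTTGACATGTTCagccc
Ccng1 (chr11:40755457-40755486, - strand): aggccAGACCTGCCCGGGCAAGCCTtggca
Gtse1 (chr15:85859940-85859969, + strand): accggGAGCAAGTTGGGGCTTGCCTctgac
The first of these bases in capitals lies 51 bases before the annotated start site in Cdkn1a, 195 bases before it in Ccng1 and 1 base before it in Gtse1.

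Single decamers, in capitals below, are shown for p53 itself, its main inhibitor and 3 death genes whose values are described in what follows. They allow the variation within the pattern to be read.
Trp53 (chr11:69580274-69580303, + strand): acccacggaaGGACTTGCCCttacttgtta
Mdm2 (chr10:117710925-117710954, - strand): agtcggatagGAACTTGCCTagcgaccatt
Bax (chr7:45467080-45467109, - strand): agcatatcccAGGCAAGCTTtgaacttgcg
Aen (chr7:78895927-78895956, + strand): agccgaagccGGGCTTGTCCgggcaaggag
Ei24 (chr9:36797325-36797354, - strand): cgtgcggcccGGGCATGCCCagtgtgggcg

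For contrast, whole 300-base windows are given for Cdkn1a and Phlda3. The Cdkn1a window holds the pair and a further decamer (all in capitals). Phlda3 is the member with the largest difference in both cell types, and no whole decamer was found in its window. The Cdkn1a window belongs to the upstream of its 2 start sites in the table.
Cdkn1a (chr17:29090729-29091028, + strand): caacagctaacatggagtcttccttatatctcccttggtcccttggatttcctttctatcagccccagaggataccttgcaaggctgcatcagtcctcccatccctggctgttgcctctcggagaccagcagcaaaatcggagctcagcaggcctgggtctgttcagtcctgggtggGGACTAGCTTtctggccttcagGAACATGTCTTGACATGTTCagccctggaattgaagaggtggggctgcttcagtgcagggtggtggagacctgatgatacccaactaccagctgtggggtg
Phlda3 (chr1:135765835-135766134, + strand): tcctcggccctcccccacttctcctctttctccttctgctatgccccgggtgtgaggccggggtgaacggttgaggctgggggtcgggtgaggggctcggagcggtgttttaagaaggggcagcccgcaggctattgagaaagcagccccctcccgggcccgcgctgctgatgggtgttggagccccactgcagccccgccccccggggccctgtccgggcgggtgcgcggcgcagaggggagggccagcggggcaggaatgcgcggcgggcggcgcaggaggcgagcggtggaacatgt
The Phlda3 window is 71.7% G and C with 26 CpG dinucleotides, against 54.7% and 2 in the upstream Cdkn1a window. The window of the downstream Cdkn1a start site, not printed, is 64.7% G and C with 23 CpG dinucleotides and holds 0 decamers, so the contrast is with the upstream window alone. Of the 5 members at least 2-fold higher with 4OHT in both cell types, Phlda3, Ak1, Dcxr and Eda2r had a window and none of their windows held the decamer, while Zmat3 had no window. These windows do not reach introns or distant sites. The last bases of the Phlda3 window match the start of the decamer, and the window's edge cuts off the rest. Whether a whole decamer lies there was therefore not settled.

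Levels are given as normalized counts, the deposited values, in which 1 read was worth 0.0695 to 0.0802. Differences are log2 of the normalized count plus 0.5, 4OHT minus ethanol, and a gene is called higher or lower at 2-fold or more on that scale. The added 0.5 shrinks the differences of low genes, so ratios of the normalized counts themselves are given too, each with an exact 95% interval in brackets. These intervals cover counting error only, not variation between cultures, and reads without molecular barcodes are not independent molecules. A total of 11370 genes averaging 1 or more normalized counts over the 4 libraries were tested, and all 44 members passed this filter, Eda2r narrowly at a mean of 1.02. With 1 library per group there is no test of a difference within a cell type.

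Across the members, differences with 4OHT leaned upward in both kinds of colony. In ST-HSC colonies 8 of the 44 were at least 2-fold higher, where 2.10% of all tested genes were, and 0 were at least 2-fold lower (0.545% of all). In MPP2 colonies 7 were at least 2-fold higher (1.32% of all) and 2 at least 2-fold lower (1.70% of all). The same 5 genes, Phlda3, Zmat3, Ak1, Dcxr and Eda2r, were at least 2-fold higher in both, against 0.756% of all genes. Eda2r lost its 2-fold call in MPP2 with a pseudocount of 1 (log2 0.79) or total read scaling (0.98), which left 6 members higher there. It also passed the filter on low values only through the 4OHT libraries, so it had to differ. Tgfa, lower in MPP2, passed this filter only through the MPP2 library with ethanol, so it too had to differ. In at least 1 cell type 10 members were 2-fold higher (2.66% of all) and 2 lower (2.03%). The median log2 difference of the members was 0.36 in ST-HSC and 0.27 in MPP2 colonies, beside medians of -0.00 over all tested genes in both.

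Smaller differences leaned the same way. A counting interval of the ratio wholly above 1 in both cell types was found for 18 members (9.19% of all) and one wholly below 1 in both for 2, Gadd45a and Mdm4 (9.95%). After removal of the trend with GC content the MPP2 difference of Mdm4 was 0.03, so its direction there turned with the scaling. The log2 difference was above 0 for 33 members in ST-HSC (49.3% of all) and 30 in MPP2 (49.7%). It was above 0 in both cell types for 27 members (30.4% of all) and below 0 in both for 8 (31.4%). Across the 44 members the differences in ST-HSC and MPP2 colonies had a Pearson correlation of 0.77, and across all tested genes 0.43. Among lists described below it was 0.75 for other p53 targets, 0.65 for housekeeping genes and 0.86 for monocyte and macrophage markers. For p53 regulators it was 0.32, and for mast cell and basophil markers 0.31. A correlation also depends on the spread, an SD of 0.77 for the members and 0.38 for all tested genes in ST-HSC. These correlations describe genes, which are not independent replicates, in libraries made in one study.

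**Figure D1:**
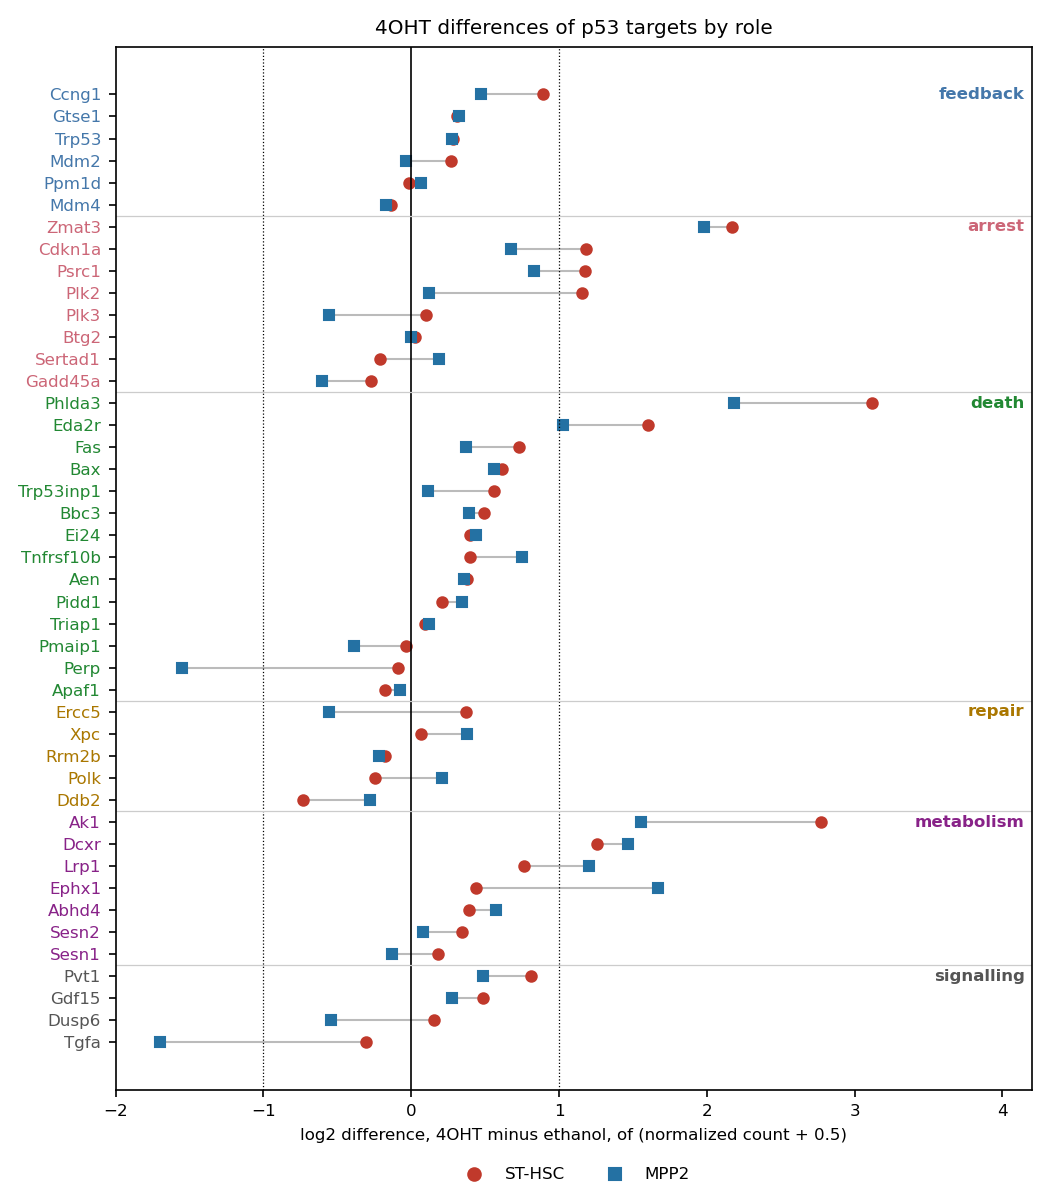
Log2 difference with 4OHT of each of the 44 members, grouped by role, in ST-HSC (circles) and MPP2 colonies (squares), 1 library per group, with dotted lines at 2-fold. Phlda3, Zmat3 and Ak1 lie furthest to the right in ST-HSC colonies, Perp and Tgfa furthest to the left in MPP2 colonies, and no repair or feedback gene lies beyond a dotted line.

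None of the 6 feedback genes reached 2-fold in either cell type (2.66% of all tested genes were higher and 2.03% lower in at least 1). Ccng1 had the largest differences among the 6. Trp53, which encodes p53 itself, had 139 normalized counts in ST-HSC with ethanol and 169.8 with 4OHT, and 109.7 and 133 in MPP2. Both 4OHT libraries were above their own controls, by a log2 difference of 0.28 and 0.27 (ratios 1.22 [1.15 to 1.29] and 1.21 [1.13 to 1.30]). About 10.1% of the 31-base words of Trp53 transcripts also occur in its pseudogene Trp53-ps, so some of its reads could have been assigned to either.

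Mdm2, the ubiquitin ligase that targets p53 for destruction and a classic p53 target, had 83.7 and 101 normalized counts in ST-HSC and 103 and 100.4 in MPP2. Only the ST-HSC ethanol library stood below the other 3, and the log2 differences were 0.27 and -0.04. Mdm4, its partner in holding p53 inactive, had 96.5 and 87.7 in ST-HSC and 113 and 100.8 in MPP2, slightly lower with 4OHT in each. Shared words with Mdm4-ps make up 13.6% of its transcripts. The p53 phosphatase gene Ppm1d was at log2 -0.01 and 0.07.

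Ccng1 and Gtse1, the feedback genes with the paired decamer, stood above their controls in both cell types, as did Trp53 without the pair. A link between the pair and the differences was not tested. Ccng1, cyclin G1, which helps to restore Mdm2 activity, had 141 and 262 normalized counts in ST-HSC and 144 and 199.8 in MPP2. That is a ratio of 1.85 (1.76 to 1.96) in the former and 1.39 (1.31 to 1.47) in the latter, so the libraries with 4OHT were the higher pair. Gtse1, a microtubule-associated protein that carries p53 out of the nucleus, had log2 differences of 0.31 and 0.32.

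Of the 8 arrest genes, 4 were at least 2-fold higher with 4OHT in ST-HSC colonies (2.10% of all tested genes). Of these, Zmat3 was also at least 2-fold higher in MPP2 colonies (1.32% of all in MPP2, 0.756% in both). None of the 8 was 2-fold lower in either cell type (2.03% of all). The median log2 difference of the 8 was 0.63 in ST-HSC and 0.16 in MPP2.

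Zmat3 (chromosome 3, 32334792 to 32366014, minus strand) encodes a zinc-finger RNA-binding protein that regulates splicing and growth downstream of p53. It had 10.5 normalized counts in ST-HSC with ethanol and 49.0 with 4OHT, and 12.99 and 52.7 in MPP2. Both 4OHT libraries were well above both controls and close to each other, with ratios of 4.67 (3.91 to 5.61) and 4.06 (3.44 to 4.81). On the log2 scale the differences were 2.17 and 1.98.

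Cdkn1a (chromosome 17, 29090976 to 29100727, plus strand) encodes p21, the cyclin-dependent kinase inhibitor through which p53 halts the cell cycle. Its level was 90.0 and 205 normalized counts in ST-HSC and 97.8 and 156 in MPP2. The controls were alike, and the ST-HSC library with 4OHT was the highest of the 4. In ST-HSC the ratio was 2.28 (2.13 to 2.44) and in MPP2 1.60 (1.49 to 1.71), log2 differences of 1.18 and 0.67. An antisense gene overlaps its exons, and the sources used here do not state the strand setting of the counting.

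Psrc1, a spindle-associated protein, had 6.68 and 15.7 normalized counts in ST-HSC and 6.06 and 11.2 in MPP2, so here too the 2 libraries with 4OHT were the higher ones. Its log2 differences were 1.18 and 0.83. Plk2, a polo-like kinase with a stress checkpoint role, had 7.65 and 17.7 in ST-HSC but 22.1 and 24.1 in MPP2. The MPP2 control was already above the ST-HSC library with 4OHT, and the differences were 1.16 and 0.12.

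The other 4 arrest genes were level with their controls, below them or of mixed sign. Btg2, an antiproliferative cofactor, was level in both (0.02 and -0.00). Gadd45a, a stress sensor that inhibits CDK1, was lower in both, at -0.28 and -0.60, with counting intervals below 1. Plk3, another stress-responsive polo-like kinase, was at 0.10 and -0.56, with an MPP2 ratio of 0.677 (0.610 to 0.752). Sertad1, a CDK4-binding protein, was at -0.21 and 0.19. Both Gadd45a and Plk3 have exons that overlap an antisense gene.

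**Figure D2:**
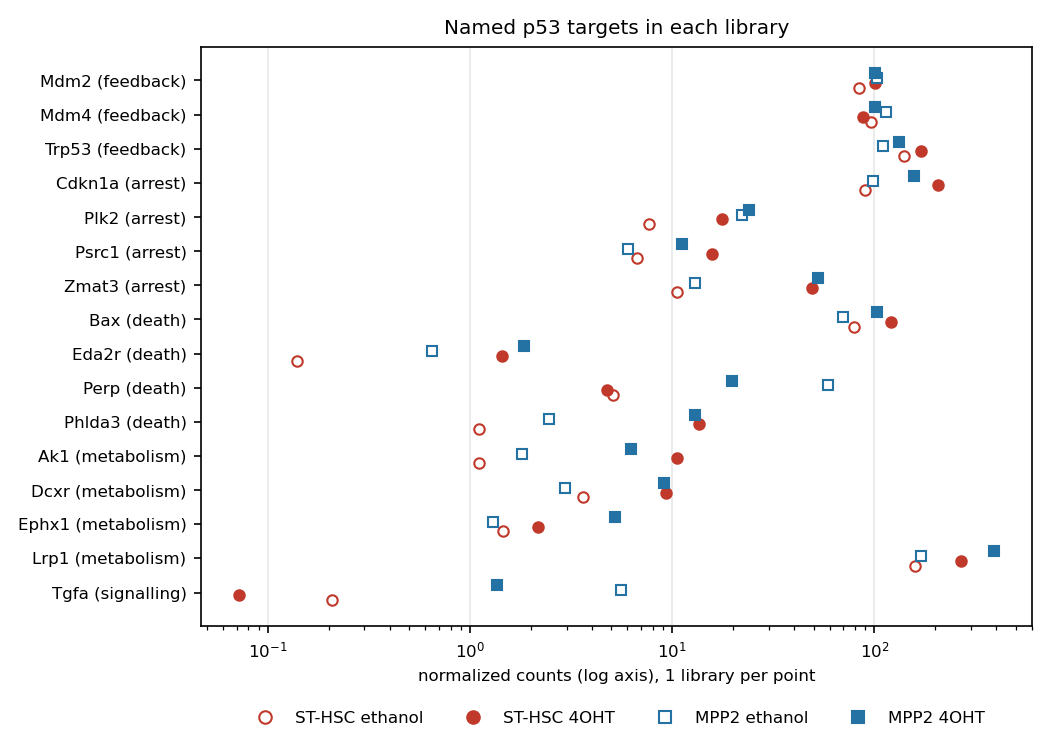
Normalized counts (log axis) of the 16 members named with full values, 1 point per library, open symbols for ethanol and filled symbols for 4OHT, red for ST-HSC and blue for MPP2. For Zmat3, Phlda3, Ak1 and Dcxr both filled symbols lie to the right of both open ones, and for Perp and Tgfa the open MPP2 square lies furthest to the right.

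Among the 14 death genes the direction was the same in both cell types for each gene, though most differences were under 2-fold. In both cell types 11 were above 0 (30.4% of all tested genes) and 3 below 0 (31.4% of all). The counting interval was wholly above 1 in both for 8 (9.19% of all) and wholly below 1 in both for 0 (9.95%). For the rest the direction in at least 1 cell type was within counting error. Phlda3 was at least 2-fold higher in both and Perp at least 2-fold lower in MPP2, while Eda2r passed 2-fold on few reads. The median log2 difference was 0.40 in ST-HSC and 0.37 in MPP2.

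Phlda3 (chromosome 1, 135766119 to 135769136, plus strand) encodes a small membrane-binding protein that competes with AKT for lipids and so dampens survival signalling. Its level was 1.11 normalized counts in ST-HSC with ethanol and 13.5 with 4OHT, and 2.45 and 12.9 in MPP2. The 2 libraries with 4OHT were nearly equal, and the controls were both low. Log2 differences were 3.12 and 2.18, with ratios of 12.1 (7.28 to 21.7) and 5.27 (3.62 to 7.86).

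Eda2r, a death receptor of the TNF receptor family on chromosome X (97333840 to 97377216, minus strand), rested on few reads. It had 2 and 20 reads in ST-HSC and 9 and 23 in MPP2, or 0.139, 1.44, 0.649 and 1.85 normalized counts. The intervals of its ratios were wide, 10.3 (2.51 to 91.2) and 2.84 (1.27 to 6.98).

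Bax, the pore-forming protein that permeabilizes mitochondria, had 78.8 and 121 normalized counts in ST-HSC and 69.8 and 103 in MPP2. Both libraries with 4OHT exceeded both controls, with log2 differences of 0.61 and 0.56. Its exons overlap those of Gm45808 on the same strand, and 11.1% of its words are shared with that gene. Per kilobase of merged exon Bax reached the highest level of any member, 76.6 normalized counts in ST-HSC with 4OHT, close to the 74.5 of Ccng1.

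Other genes of the mitochondrial and receptor pathways had modest differences. Bbc3, which encodes the BH3-only protein PUMA, was at log2 0.49 and 0.39, whereas Pmaip1, which encodes NOXA, was at -0.04 and -0.39. The death receptors Fas and Tnfrsf10b were at 0.73 and 0.37 and at 0.39 and 0.75. Apaf1, the scaffold of the apoptosome, was at -0.18 and -0.08 at a high level of 174.8 to 204 normalized counts.

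The remaining 5 death genes were above 0 in both. Aen, an apoptosis-enhancing nuclease, was at 0.38 and 0.36, and Ei24, an endoplasmic reticulum protein, at 0.40 and 0.44. Trp53inp1, which promotes death and autophagy, was at 0.56 and 0.12. Pidd1, which activates caspase-2, and Triap1, an inhibitor of apoptosis despite its place here, lay between 0.09 and 0.34.

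Perp was 1 of the 3 death genes below 0 in both cell types, and the only one past 2-fold. It encodes a membrane protein of desmosomes that was first described as a p53 effector of apoptosis (chromosome 10, 18845020 to 18857073, plus strand). Its level was 5.08 and 4.74 normalized counts in ST-HSC, and 59.0 with ethanol and 19.8 with 4OHT in MPP2. The MPP2 control stood far above the other 3 libraries, and the MPP2 ratio was 0.336 (0.290 to 0.388). The log2 differences were -0.09 and -1.55.

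The sums of mast cell and basophil markers and of erythroid markers were, like Perp, highest in MPP2 with ethanol. Other lists differed less there: in MPP2 megakaryocyte markers summed to 329.5 with ethanol and 349.8 with 4OHT. Neutrophil markers summed to 42791 and 41576. In ST-HSC Perp was near its control, while mast cell and basophil markers were lower with 4OHT. The summed level of 10 mast cell and basophil markers was 225 and 175 normalized counts in ST-HSC and 1620.3 and 620.1 in MPP2. The median log2 difference of the list was -0.77 in ST-HSC and -1.42 in MPP2. At least 2-fold lower were 4 of 10 in ST-HSC (0.545% of all tested genes) and 7 of 10 in MPP2 (1.70%), and Kit was above 0 in both. In ST-HSC Tpsb2 had 0 reads in both libraries and Cma1 had 0 with 4OHT. The sum of 9 erythroid markers was 2.85 and 1.72 in ST-HSC and 150.1 and 16.9 in MPP2. Slc4a1, Hbb-b1 and Hba-a2 had 0 reads in both ST-HSC libraries, and Slc4a1 and Hba-a2 had 0 in MPP2 with 4OHT. Their part in the result was not tested. In bulk samples fewer cells of a type and less RNA per cell cannot be told apart.

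No repair gene reached 2-fold in either cell type (2.66% of all tested genes were higher and 2.03% lower in at least 1). The median log2 difference of the 5 was -0.18 in ST-HSC and -0.22 in MPP2. Ddb2, the damage-recognition subunit that recruits nucleotide excision repair, had 5.36 and 3.02 normalized counts in ST-HSC and 5.56 and 4.49 in MPP2, lower with 4OHT in each. Its ratios were 0.564 (0.378 to 0.831) and 0.809 (0.563 to 1.16). Its exons overlap those of Acp2 on the other strand.

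Xpc, which detects distorted DNA in the same pathway, was at log2 0.07 and 0.38, and Rrm2b, the p53-inducible subunit of ribonucleotide reductase, at -0.18 and -0.22. Polk, a translesion polymerase, was at -0.25 and 0.21, and Ercc5, the XPG endonuclease, at 0.37 and -0.56. These 2 took opposite signs in the cell types, as did 2 feedback genes, 3 arrest genes, 1 metabolism gene and 1 signalling gene. Levels of the 5 genes ranged from 3.02 to 67.0 normalized counts.

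Metabolism genes held the highest share of 2-fold differences in MPP2 colonies, 4 of 7 (1.32% of all tested genes), with 2 of 7 in ST-HSC (2.10% of all). All 7 were above 0 in ST-HSC (49.3% of all) and 6 of 7 in MPP2 (49.7%). The median log2 difference was 0.44 in ST-HSC and 1.20 in MPP2.

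Ak1, the cytosolic adenylate kinase that balances ATP, ADP and AMP (chromosome 2, 32621758 to 32635058, plus strand), had 1.11 and 10.5 normalized counts in ST-HSC and 1.80 and 6.26 in MPP2. Both controls were under 2 and both libraries with 4OHT over 6. The ratios were 9.43 (5.62 to 16.9) and 3.47 (2.19 to 5.68).

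Dcxr, which reduces dicarbonyls and xylulose (chromosome 11, 120725399 to 120727281, minus strand), had 3.62 and 9.34 normalized counts in ST-HSC and 2.96 and 9.07 in MPP2. The pattern was almost the same in the 2 kinds of colony, with ratios of 2.58 (1.86 to 3.64) and 3.06 (2.13 to 4.49).

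Ephx1, the microsomal epoxide hydrolase, was low everywhere but in 1 library: 1.46 and 2.16 normalized counts in ST-HSC, and 1.30 and 5.21 in MPP2. Its MPP2 ratio was 4.02 (2.35 to 7.19), while the ST-HSC interval included 1 (1.48, 0.818 to 2.71). Gm36961 overlaps its exons on the same strand.

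Lrp1, a large endocytic receptor that also binds lipoproteins, had the highest mean normalized count of the members over the 4 libraries, though Apaf1 was higher in both ethanol libraries. It had 158 and 268 in ST-HSC and 169.6 and 391 in MPP2. Both controls were alike and the MPP2 library with 4OHT was the highest. The ratios were 1.70 (1.61 to 1.79) and 2.31 (2.19 to 2.42), or log2 0.76 and 1.20. Removal of the GC trend left 1.03 in MPP2.

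Macrophages are a known site of Lrp1 expression. Of 8 tested monocyte and macrophage markers, 7 were above 0 with 4OHT in ST-HSC (49.3% of all tested genes) and 7 in MPP2 (49.7%). In both cell types 6 were above 0 (30.4% of all). Itgam was lower in ST-HSC (588 and 550.3 normalized counts) and Cd14 in MPP2 (98.3 and 94.4). The summed level of the 9 monocyte and macrophage markers in the table was 1994.1 and 2964 normalized counts in ST-HSC and 3120.3 and 4579.9 in MPP2, most of it Lyz2 and Itgam. C1qb, a marker of mature macrophages, had 0 reads in MPP2 with ethanol and at most 0.321 normalized counts elsewhere. Their part in the result was not tested.

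The sestrins, which limit mTORC1 activity and oxidative damage, stayed near their controls, Sesn1 at log2 0.18 and -0.13 and Sesn2 at 0.35 and 0.08. Abhd4, a phospholipid hydrolase, was at 0.39 and 0.57, with counting intervals above 1 in both.

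The 4 members outside these roles differed from one another. Gdf15, a stress-induced cytokine, was at log2 0.49 and 0.27, and Pvt1, a non-coding RNA next to Myc whose exons overlap 3 predicted genes on the same strand, at 0.81 and 0.49. Dusp6, a phosphatase that turns off ERK, had 69.6 and 77.4 normalized counts in ST-HSC and 121 and 82.6 in MPP2. It was higher with 4OHT in the former, ratio 1.11 (1.02 to 1.21), and lower in the latter, 0.684 (0.632 to 0.740).

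Tgfa encodes a ligand of the epidermal growth factor receptor (chromosome 6, 86195223 to 86275719, plus strand). It had 3 reads and 1 read in ST-HSC and 77 and 17 reads in MPP2, or 0.209, 0.0719, 5.56 and 1.36 normalized counts. Like Perp, it was highest in MPP2 with ethanol, and its MPP2 ratio was 0.245 (0.136 to 0.419). Only through that library did Tgfa pass the filter on low values, so it had to differ. No fold is given for ST-HSC, where both libraries were at or under 3 reads. The mast cell, basophil and erythroid marker sums given beside Perp were highest in the same library, and their part in the result was not tested. An antisense gene overlaps its exons.

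**Figure D3:**
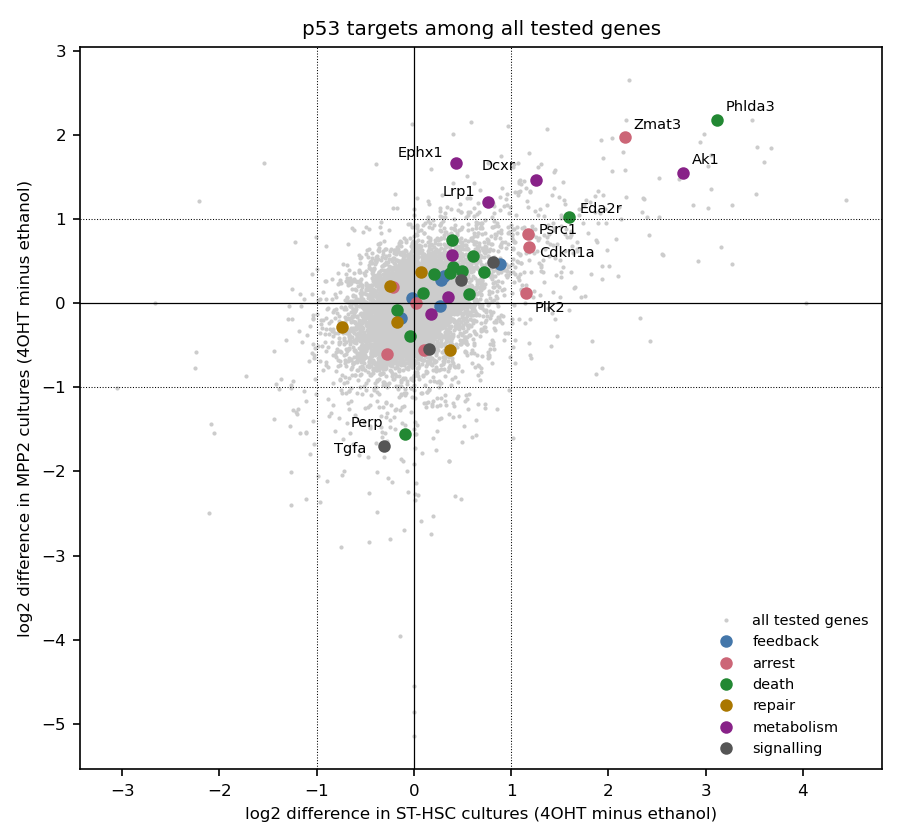
Log2 difference with 4OHT in ST-HSC (horizontal) against MPP2 colonies (vertical) for all 11370 tested genes (grey) and the 44 members (coloured by role), with dotted lines at 2-fold. Phlda3, Zmat3, Ak1, Dcxr and Eda2r lie beyond 2-fold in both, Cdkn1a, Psrc1 and Plk2 beyond it in ST-HSC alone, Lrp1 and Ephx1 in MPP2 alone, and Perp and Tgfa low in MPP2.

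Compared by cell type within ethanol, 5 members were at least 2-fold higher in MPP2 than in ST-HSC colonies: Tgfa, Perp, Plk2, Plk3 and Fas (6.27% of all tested genes were). None was at least 2-fold lower (0.862% of all). Perp was 11.6 times higher (9.13 to 15.0) and Plk2 2.89 times higher (2.31 to 3.62). Under 4OHT 3 members were at least 2-fold higher in MPP2, Tgfa, Perp and Ephx1 (5.39% of all), and 0 were lower (1.71% of all). The Perp ratio was then 4.18 (3.17 to 5.57) and that of Plk2 1.36 (1.15 to 1.62). Since the same 4 libraries are used, the change of these ratios between ethanol and 4OHT restates the difference between the 4OHT effects.

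Phlda3 and Zmat3 did not differ between the cell types beyond counting error once 4OHT was present, with MPP2 to ST-HSC ratios of 0.956 (0.770 to 1.19) and 1.08 (0.965 to 1.20). Cdkn1a was lower in MPP2 than in ST-HSC under 4OHT (0.762, 0.719 to 0.807) and slightly higher in ethanol (1.09, 1.01 to 1.17). Levels per kilobase used the merged exons of all annotated isoforms, which can be longer than the transcripts present. The order of genes on this scale is therefore approximate. By it the highest members after Bax were Ccng1 at up to 74.5 normalized counts, Cdkn1a at up to 57.7 and Trp53 at up to 42.0. Phlda3 and Zmat3, with large ratios, reached 8.67 and 4.61, and Eda2r 0.313.

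A common effect of 4OHT in both cell types was fitted with limma over all 11370 genes, with cell type and treatment as terms. With 4 libraries and 3 coefficients the fit has 1 residual degree of freedom, the disagreement between the cell types, so its p-values do not measure variation between cultures of one kind. Zmat3 was the 1 member that passed, at a shared log2 effect of 2.08 (SE 0.133, limma, Benjamini-Hochberg adjusted p = 0.0477), where 0.0440% of all genes passed as higher. By limma 0 members passed as lower (0.00880% of all). At an unadjusted p under 0.05 there were 19 higher (7.02% of all) and 3 lower, Ddb2, Gadd45a and Tgfa (7.19%).

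The Zmat3 call depends on the settings of the fit: its adjusted p ranged from 1.18e-14 to 0.201 over 12 settings and passed in 7. Phlda3 had the largest shared effect, 2.65 (SE 0.245), with a limma adjusted p of 0.0779, and passed in 5 of 12. The Dcxr effect was 1.36 (SE 0.135) at the same limma adjusted p of 0.0779, Ak1 2.16 (SE 0.301, adjusted p 0.0921) and Cdkn1a 0.93 (SE 0.171, adjusted p 0.126).

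Fits that model the trend of variance with expression called more members. Limma with trend called 11 higher (2.96% of all genes), the 10 named next and Ei24, and 0 lower (2.30%). With edgeR's quasi-likelihood test on the recovered reads 10 rose: Zmat3, Cdkn1a and Psrc1 of the arrest genes, Phlda3 and Bax of the death genes, Ak1, Lrp1, Dcxr and Abhd4 of the metabolism genes, and Ccng1 of the feedback genes (2.47% of all genes). Another 2 fell, Perp (edgeR adjusted p = 0.0471) and Tgfa (0.0372), where 1.86% of all genes did. Tgfa had passed the filter on low values only through the MPP2 library with ethanol. DESeq2 called 7 of the same 10, without Psrc1, Dcxr and Abhd4 (1.03% of all), and 0 lower (0.361%). The DESeq2 adjusted p was 2.82e-05 for Cdkn1a, 1.33e-07 for Lrp1 and 7.72e-07 for Phlda3. No repair gene passed in limma, edgeR or DESeq2. Neither Mdm2 nor Trp53 passed in any of 12 settings.

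**Figure D4:**
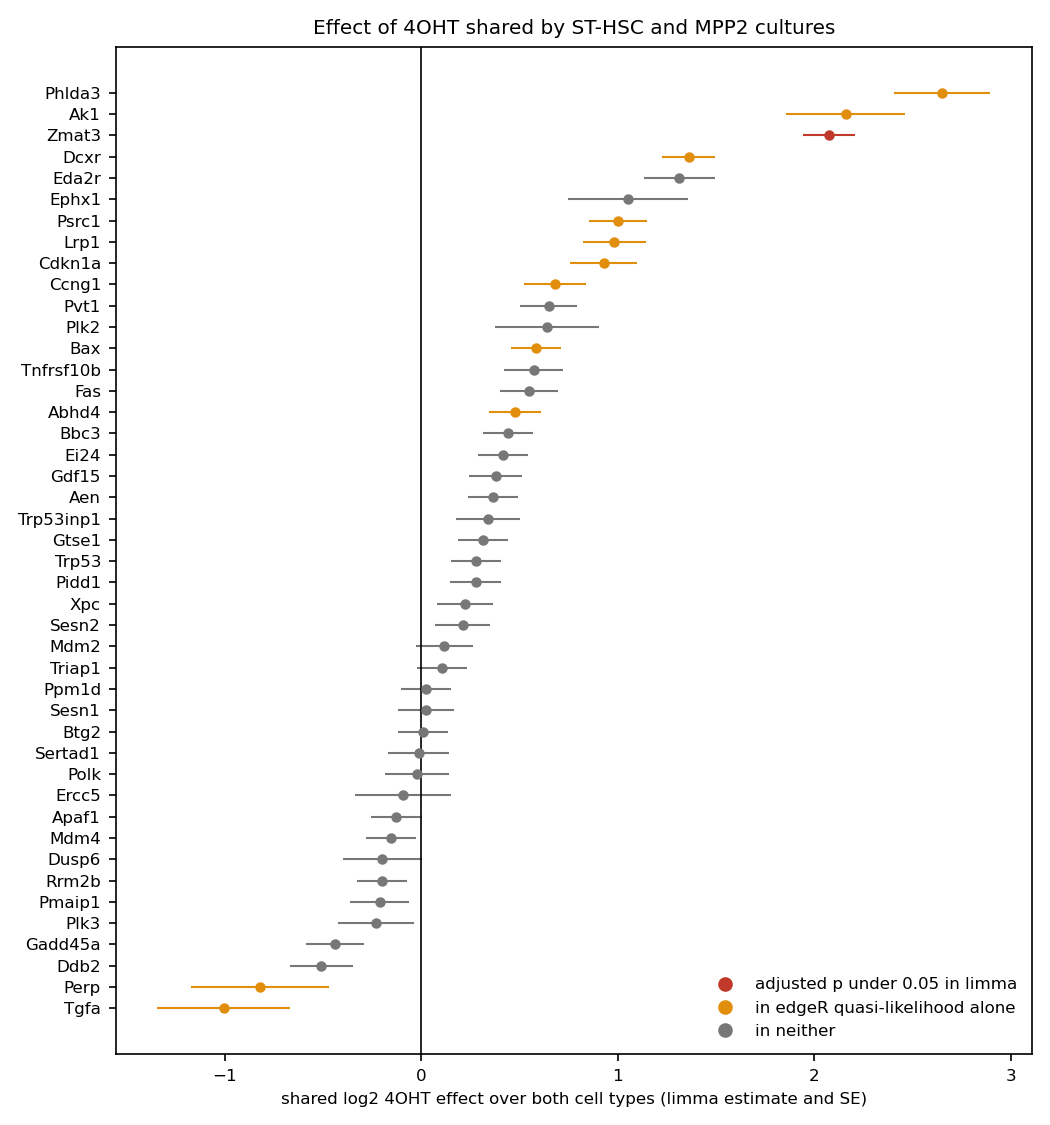
Shared log2 effect of 4OHT over both cell types for each member, with bars of 1 standard error from limma on 1 residual degree of freedom, coloured by whether the adjusted p was under 0.05. Zmat3 passed in limma, 9 further members passed as higher and Perp and Tgfa as lower in edgeR's quasi-likelihood test alone, and the rest in neither.

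Genes around the pathway were listed for comparison: 27 regulators of p53, 38 other p53 targets, and 20 cell-cycle genes that p21 represses through the DREAM complex. Of the regulators, such as kinases and ubiquitin ligases that act on p53, 23 were tested and 0 reached 2-fold in either direction in either cell type. Of all tested genes 2.66% were 2-fold higher and 2.03% lower in at least 1 cell type, so 0 of 23 is near that share. Their log2 differences lay between -0.35 and 0.31 in ST-HSC (median -0.10) and between -0.70 and 0.30 in MPP2 (median -0.09). In limma, edgeR and DESeq2 0 of them passed, and at an unadjusted limma p under 0.05 there was 1 lower, Trim24, named here after its value was seen.

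Of the other targets 31 were tested, with median log2 differences of 0.01 in ST-HSC and 0.16 in MPP2. Epha2, an ephrin receptor, was at least 2-fold higher in both, at log2 1.53 and 1.44, but it rested on 11 and 44 reads in ST-HSC and 3 and 18 in MPP2. Like Eda2r, it passed the filter on low values only through the libraries with 4OHT, so it had to differ. Thbs1, thrombospondin 1, was at least 2-fold lower in both, at -2.05 and -1.54. Lif, the leukaemia inhibitory factor, was at least 2-fold lower in MPP2, at -2.25. Like Perp, it was highest in MPP2 with ethanol, with 46.6 normalized counts against 5.63, 3.95 and 9.39 in the other 3. With edgeR 3 of the 31 rose, Epha2, Tap1 and Slc19a2 (2.47% of all genes), and 2 fell, Thbs1 and Lif (1.86%).

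The 20 cell-cycle genes had medians of -0.10 in ST-HSC and -0.11 in MPP2. Of the 20, 0 reached 2-fold in either cell type (2.66% of all tested genes were higher and 2.03% lower in at least 1). The lowest was -0.94 in ST-HSC and -0.79 in MPP2, and the highest 0.14 and 0.12. With limma 0 passed, with 4 lower (7.19% of all genes) and 0 higher (7.02%) at an unadjusted p under 0.05. With edgeR 2 were called lower, Cenpf and Bub1 (1.86% of all), and with DESeq2 1, Cenpf (0.361%). These 2 genes, a kinetochore protein and a checkpoint kinase, are named after their values were seen.

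**Figure D5:**
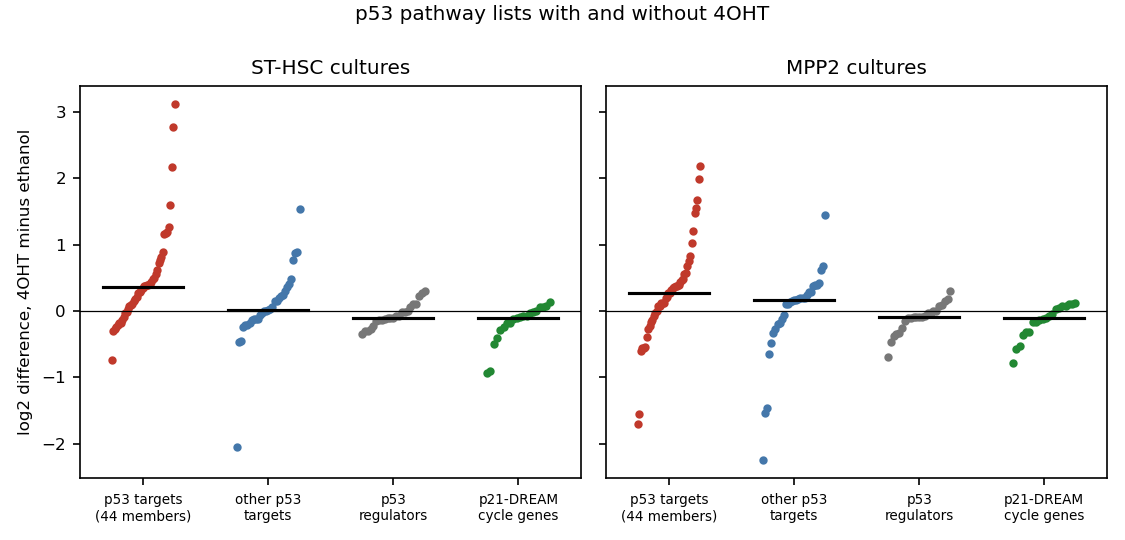
Log2 difference with 4OHT of each tested gene in 4 lists, in ST-HSC (left) and MPP2 colonies (right), 1 point per gene sorted by value, with bars at the list medians. The members reach 3.12 and 2.18 at the top, while the regulators and the cell-cycle genes stay within 2-fold in both.

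Among the marker lists neutrophil and monocyte genes had the highest sums. The 7 neutrophil markers summed to 30582 and 22502 normalized counts in ST-HSC and 42791 and 41576 in MPP2, with median log2 differences of -0.47 and 0.05. Megakaryocyte markers summed to 20.9 and 26.4 in ST-HSC and 329.5 and 349.8 in MPP2. The 7 stem and progenitor markers summed to 127 and 197 in ST-HSC and 166.0 and 164 in MPP2, with median log2 differences of 0.74 and -0.27. Of these, Slamf1 had 0 reads in both ST-HSC libraries and 44 and 31 reads in MPP2, and the RNA came from colony cells after culture, not from the plated progenitors. Of the fusion's parent genes, Kmt2a had 72.1 to 91.1 normalized counts and Mllt1 50.9 to 62.7, and gene counts do not separate the fusion from them. Housekeeping genes had median log2 differences of -0.01 in ST-HSC and 0.08 in MPP2. They ranged from -0.40 to 0.56 in ST-HSC and from -0.52 to 0.35 in MPP2. Smaller differences of members, such as those of Trp53 and Gtse1, lie within these ranges.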

How the data were processed

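RNA was extracted from colony cells and made into rRNA-depleted, strand-specific libraries from 200 ng, per the labels' protocols. The submitters' processing notes name the mm10 build, Trimmomatic 0.36, RSEM, Bowtie2 and edgeR, without order or role. The sources used here do not state the annotation or the strand setting. The authors deposited 1 table of normalized counts, a signal scaled per library. All 57292 values were whole multiples of 1 read within 1e-06 reads, so reads were recovered.

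Genes with a mean of at least 1 were tested on log2(normalized count + 0.5). The shared effect used limma 3.58.1, without trend, with Benjamini-Hochberg adjustment at 0.05 over all tested genes. Alternatives were edgeR 4.0.16 and DESeq2 1.42.0 on recovered reads (R 4.3.3), other pseudocounts, filters and scalings, and GC trend removal. The code was tested on simulated data. Exon lengths, coordinates and shared 31-base words came from GENCODE M21 on GRCm38, the assembly of mm10, and promoters from RefSeq. Python 3.11.15 and scipy 1.17.1 gave the exact conditional binomial 95% intervals.

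Members and lists were chosen with earlier results of these data known. Full values are given for members past 2-fold in either cell type or called by limma, and for Trp53, Mdm2, Mdm4, Bax and Cdkn1a. From other p53 lists, genes past 2-fold are named, at most 4 per direction, and from marker lists at most 2 by level. Levels of other members and of markers at 0 were added after values were seen. Of the marker lists, eosinophil, lymphoid and stromal markers were also summed. Some genes of the comparison and marker lists are not reported here by name.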

Additional observations from a re-analysis of the deposited data

Results flagged for a closer look

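The ERK phosphatase gene Dusp6 was higher with 4OHT in ST-HSC colonies (69.6 and 77.4 normalized counts) and lower in MPP2 colonies (121 and 82.6), and both counting intervals excluded 1. The log2 difference in MPP2 minus that in ST-HSC was -0.70. With 1 library per group this difference between the cell types was not tested.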

How the results depend on the processing

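Each group had 1 library, so no library could be left out, and no replicate variation enters any value. No paired analysis was possible because the labels carry no replicate numbers. Counts of members moved with the following settings. At 1.5-fold, 13 members were higher (8 at 2-fold; 5.28% of all tested genes at 1.5-fold) and 1 lower (0 at 2-fold; 2.89%) in ST-HSC. With a mean of at least 5, 38 members were tested, and 4 were higher (0.872% of all) and 1 lower (0.830%) in MPP2, against 7 and 2 at a mean of at least 1. The limma count of members with a higher shared effect, 1 in the reported fit, was 0 with a pseudocount of 0.1, without a filter, with median-of-ratios or total read scaling, and with the GC trend removed. It was 4 with a pseudocount of 1, 6 with a mean of at least 5 and 11 with a trend. By edgeR it was 10 and by DESeq2 7. Lower members numbered 2 by edgeR and 0 in limma. The cause was not tested. No named member past 2-fold changed sign. Log2 differences of named members stayed within their counting intervals in 211 comparisons and moved in 5, all on removing the GC trend in MPP2: Trp53 to 0.14, Mdm4 to 0.03, Cdkn1a to 0.55, Bax to 0.35 and Lrp1 to 1.03. Total read scaling moved the median of all genes in MPP2 to -0.07. The median of the members in MPP2, 0.27 as reported, was 0.21 with that scaling and 0.19 with the GC trend removed. In ST-HSC it was 0.36 as reported, 0.38 with total read scaling and 0.32 with the GC trend removed. Depth limits Eda2r and Tgfa, with 2 or 3 reads in a control library.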

Other observations

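Zfp365, a p53 target that guards fragile genomic sites, fell below the filter on low values and so stood in no comparison. It had 1 read in ST-HSC with ethanol and 36 with 4OHT, and 1 and 8 in MPP2. No fold is given, since each control library held 1 read. Of the 38 other p53 targets listed, 37 had values and 31 were tested. Further genes of that list below the filter are not described. Eosinophil markers summed to 31.3 and 26.1 normalized counts in ST-HSC and 201.8 and 99.6 in MPP2. Lymphoid markers in the table summed to 81.0 and 65.8 in ST-HSC and 80.6 and 68.4 in MPP2, and stromal markers to 84.8 and 74.7 and to 166.9 and 118.5. The progenitor surface gene Ly6a had 27.8 and 61.4 normalized counts in ST-HSC and 24.7 and 32.01 in MPP2.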
